A study of Mus musculus with 6 samples.

Results

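The genes described here were 10 C-type lectin genes, chosen by symbol through the GENCODE M21 annotation from the 35598 gene identifiers listed. They were 5 genes of the Cd209 family (Cd209a, Cd209b, Cd209d, Cd209f and Cd209g) and 5 lectin genes from other loci (Clec10a, Clec4n, Clec7a, Clec4a1 and Clec4a3). They were measured by RNA sequencing in CAMs (central nervous system-associated macrophages), which live around brain vessels, in the meninges and in the choroid plexus. The 3 aged libraries came from male C57BL/6 mice of 18 months and the 3 young libraries from male C57BL/6 mice of 2 months. Both groups shared the same strain, sex and tissue, and the labels name no treatment for either. Cells negative for CD3 and positive for CD11b, CD45 and CD206 had been sorted from whole brains, so the gate took any CD206-bearing cell of the myeloid lineage and was not restricted to one border compartment. Nothing in the labels ties a library to its own animal; p-values therefore measure only the spread between these 6 libraries, and that spread may be technical.

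C-type lectin receptors are membrane proteins whose extracellular domain binds sugars, in many family members with the help of calcium, and which macrophages use to recognise glycans on microbes, dying cells and self proteins. The mouse Cd209 genes are relatives of the human receptor DC-SIGN, which binds mannose- and fucose-containing glycans. Other receptors of the class signal through an activating motif and the kinase Syk, as dectin-1 and dectin-2 do, or carry inhibitory motifs that recruit phosphatases. Tissue-resident macrophages beside blood vessels express several of these genes, among them Cd209f, Cd209g and Clec10a.

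The libraries held 26605079 to 33306121 estimated counts. The correlation of log2 CPM across genes was 0.570 to 0.659 between an aged and a young library and 0.589 to 0.688 within an age, so libraries of one age were hardly more alike than libraries of different ages; genes are not independent replicates. Mrc1, which encodes the sort marker CD206, was abundant in every library. It was at 1182 to 2345 normalised CPM (counts scaled to library size) in aged libraries and at 2674 to 2940 CPM in young libraries. The gate excluded CD3-positive cells. T cell markers (5 genes) summed to 144, 13.7 and 0.106 CPM in aged libraries, against 29.7, 19.2 and 0.608 CPM in young libraries. Of the dendritic cell markers, which matter because Cd209a and Clec10a are also expressed by dendritic cells, 3 of 9 (Xcr1, Ccr7 and Dpp4) had 3 counts or fewer in each library, and the 9 markers summed to 23.2 to 38.0 CPM in aged libraries and 21.4 to 62.0 CPM in young libraries. Of the microglia markers 8 of 11 were higher, and of the border macrophage markers 5 of 10 lower, in each aged library. Of all genes tested, 7.54% were higher and 7.19% lower in each. Microglia markers summed to 9918 to 17131 CPM in aged libraries and 5056 to 7737 CPM in young libraries, and border macrophage markers to 7700 to 16425 CPM in aged libraries and 23873 to 27258 CPM in young libraries. Erythroid markers (5 genes) summed to 9862, 9075 and 85.8 CPM in aged libraries, against 13792, 10100.3 and 30268 CPM in young libraries, and 2 of 5 were lower in each aged library. The microglia, border macrophage and erythroid sums did not overlap between the groups. Neutrophil markers (8 genes) did overlap, at 21450, 7701 and 4.42 CPM in aged libraries, against 37441, 11933 and 14463 CPM in young libraries. Aged replicate 3 stood apart as nearly free of erythroid and neutrophil transcripts. Without it the log2 fold changes were 5.80 for Cd209d, 1.46 for Cd209b and -1.11 for Clec10a, against 5.50, 1.48 and -1.38 with it. The part of these marker sums in the lectin results was not tested. In such bulk samples fewer cells of a type and less RNA per cell cannot be told apart.

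All 10 lectin genes were measured in these cells, each at a mean of at least 50 CPM over the 6 libraries, and each passed the filter on low counts. For Cd209d and Cd209b all aged values exceeded all young values, for Clec10a all aged values lay below all young values, and the other 7 genes overlapped between the groups. None of the 10 was called by edgeR's quasi-likelihood test with Benjamini-Hochberg adjustment over the 10661 genes tested (adjusted p from 0.744 to 0.998), where 0.00938% of genes were called higher and 0.0% lower. Without adjustment 1 of the 10 (Cd209d) passed 0.05 on the higher side and 1 (Clec10a) on the lower side in edgeR, against 3.63% of all genes tested higher and 2.04% lower. Of the 10, 0 were called by limma-trend (0.0107% of all genes higher and 0.0% lower), by limma-voom (0.0% of all genes in either direction), by DESeq2's Wald test (1.1% of all genes higher and 0.385% lower), by edgeR without a filter (0.225% higher and 0.0485% lower) or by edgeR on abundant genes alone, those averaging 50 CPM or more (0.87% higher and 0.275% lower). Of all genes tested, 7.54% were higher in each aged library and 7.19% were lower in each, and among genes averaging 50 CPM or more these shares were 11.2% and 8.45%. Read against those shares, 2 higher and 1 lower of 10 are not a result about these genes as a set.

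**Figure D1:**
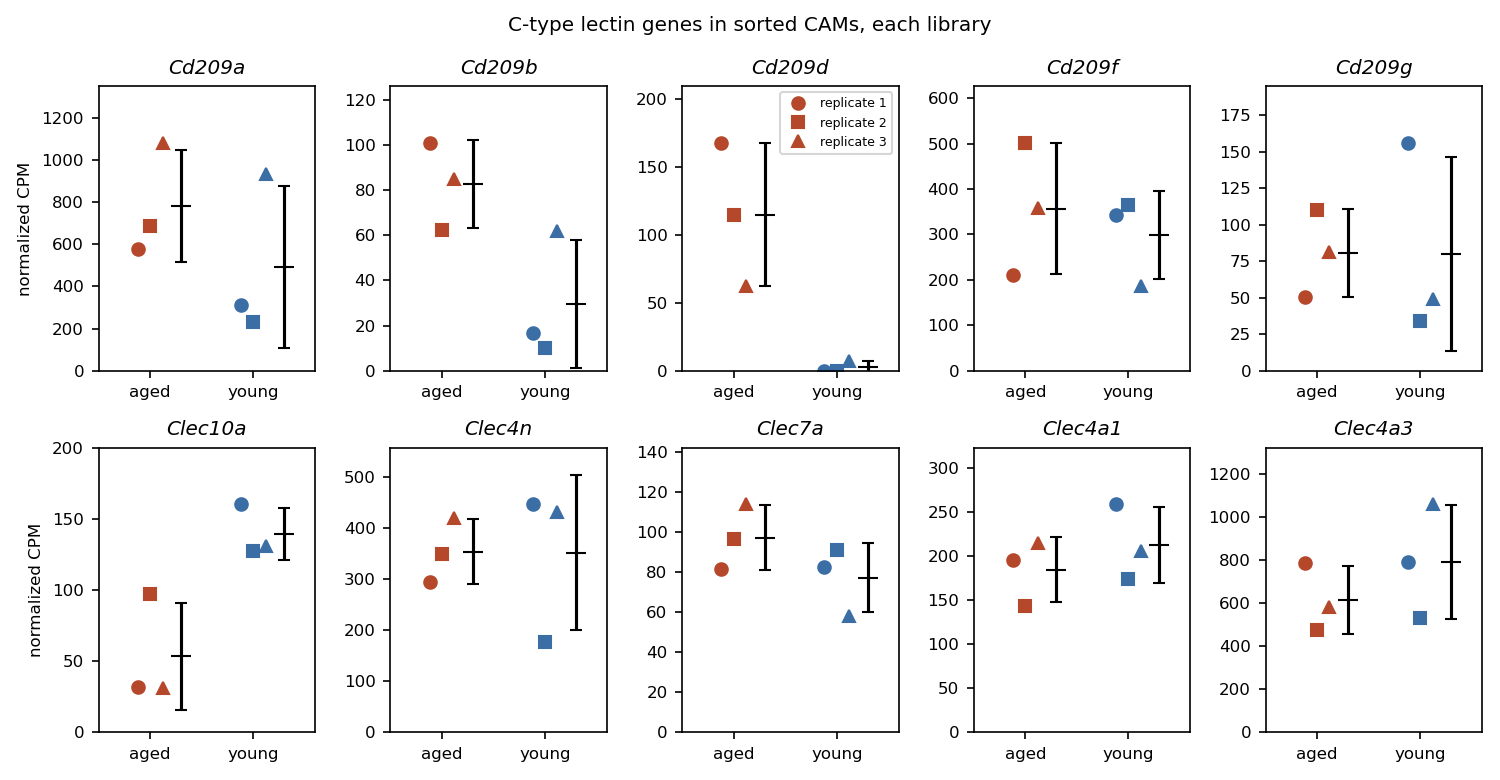
Normalised CPM (linear axes from 0, a separate scale for each gene) of the 10 lectin genes in the 3 aged libraries (red) and the 3 young libraries (blue). Marker shapes give the replicate number of the labels, which the main fit did not use as a pairing, and the black bar the mean ± SD. Cd209d lies between 62.5 and 168 CPM in aged libraries and between 0 and 7.62 CPM in young ones, and young replicate 3 is the highest young library for Cd209a, Cd209b and Cd209d.

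The Cd209 genes lie together on chromosome 8 (mm10, 3743397 to 4137707, a span of 394 kb). Listed by position, Cd209a (ENSMUSG00000031494, minus strand, 3743397 to 3748984) is followed by Cd209e, Cd209d (ENSMUSG00000031495, minus strand, 3871824 to 3878555), Cd209b (ENSMUSG00000065987, minus strand, 3917655 to 3926844), Cd209c, Cd209f (ENSMUSG00000051906, minus strand, 4102787 to 4105835) and Cd209g (ENSMUSG00000079168, plus strand, 4134098 to 4137707). Expression was not shared by all genes of the locus. Cd209e and Cd209c, which lie between the abundant members, had 751 and 525 counts over the 6 libraries together, against 115837 counts for Cd209a and 11242 for Cd209d. Of the 751 Cd209e counts, 748 were in aged replicate 2.

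Cd209d encodes SIGNR3, a receptor of the family that binds mycobacterial glycolipids in mice, and had the largest difference among the 10 genes. It was at 168, 115 and 62.5 CPM in aged libraries, against 0, 0 and 7.62 CPM in young libraries. All 3 aged libraries lay above every young one, and the lowest aged library was 8.20-fold higher than young replicate 3, the highest young one. The underlying counts were 4826, 4436 and 1767 in aged libraries and 0, 0 and 213 in young libraries. The aged mean of 115 ± 52.6 CPM (SD, n = 3) was at least 1030-fold above the floor of 3 counts in young replicates 1 and 2. That floor covers counting error only, so the fold is not a lower bound on the difference between the ages. Other genes also reached 0 within an age. Il2rg had 0, 502 and 585 counts and Plac8 had 790, 0 and 1020 counts in young libraries. Clec2d had 500, 113 and 0 counts in aged libraries. Whether transcripts were lost in the young libraries at 0 for Cd209d was not tested. The fitted log2 fold change was 5.50 (SE 1.96, 95% interval 1.11 to 9.89, edgeR adjusted p = 0.744). The value rested on young replicate 3: without that library the gene was at 0 counts in every young library left and was called (edgeR adjusted p = 0.0303), where 0.0169% of genes were called higher. Of the 9 dendritic cell markers, 1 was higher in each aged library, 1 was lower in each and 7 overlapped. Of all genes tested, 7.54% were higher and 7.19% lower in each. Batf3 was the higher one, at 22.4, 15.9 and 23.2 CPM in aged libraries, against 0, 0.484 and 0 CPM in young libraries. Zbtb46 was the lower one, with 0, 1 and 1 counts in aged libraries, against 650, 1 and 461 counts in young libraries. Young replicate 2 was thus apart from the aged libraries only by depth scaling, below the floor of 3 counts. Zbtb46 did not pass the filter and is not among the genes tested. The part of these markers in the Cd209d values was not tested.

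Cd209b encodes SIGNR1, known from marginal zone macrophages of the spleen as a receptor for bacterial polysaccharide and dextran. It was at 101, 62.2 and 84.8 CPM in aged libraries, against 17.0, 10.1 and 61.9 CPM in young libraries. The groups were apart only by the small step between aged replicate 2 and young replicate 3, while young replicates 1 and 2 lay far lower. The log2 fold change was 1.48 (SE 0.72, 95% interval -0.14 to 3.09, edgeR adjusted p = 0.905).

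Cd209a, the gene named mouse DC-SIGN, had the highest mean CPM of the family in both groups, though Cd209f was above it in young replicates 1 and 2. It was at 576, 689 and 1080 CPM in aged libraries, against 314, 231 and 935 CPM in young libraries. Young replicate 3 lay above 2 of the 3 aged libraries, so the groups overlapped. The log2 fold change was 0.66 (SE 0.52, 95% interval -0.50 to 1.82, edgeR adjusted p = 0.993). Without young replicate 3 the log2 fold changes of Cd209a and Cd209b were 1.53 and 2.62, and neither was called (edgeR adjusted p = 0.767 for both). Replicate 3 of each group was also the library with the most choroid plexus epithelium transcripts, whose 5 markers summed to 8178 CPM in aged replicate 3 and to 569 and 1021 CPM in the other aged libraries, and to 11806 CPM in young replicate 3 and to 1117 and 1368 CPM in the other young libraries. The part of these transcripts in the Cd209a, Cd209b and Cd209d values was not tested.

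Cd209f and Cd209g, transcripts of vessel-associated resident macrophages in mice, did not separate by age. Cd209f was at 212, 501 and 358 CPM in aged libraries, against 343, 365 and 188 CPM in young libraries (log2 fold change 0.26, SE 0.41, 95% interval -0.65 to 1.17). Cd209g was at 50.4, 110 and 81.0 CPM in aged libraries, against 156, 33.8 and 49.4 CPM in young libraries (log2 fold change 0.016, SE 0.63, 95% interval -1.39 to 1.42). The interval for Cd209g leaves room for a difference of over 1 log2 unit in either direction, so a difference of that size is not excluded. For Cd209f the sign turned without aged replicate 2 (log2 fold change -0.066), the library with the highest value. For Cd209g it turned in 5 of 14 alternatives, and the log2 fold change ran from -0.36 to 0.96 with 1 library left out.

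Sequence near the starts is shown for these 2 genes because they were the most alike pair among the Cd209 members. Cd209c and Cd209e were not compared. Their transcripts share this likeness, which bears on how reads were assigned to Cd209f and Cd209g. The RefSeq start sites (GRCm38.p6, the assembly behind mm10) lie inside the GENCODE M21 genes: of the 250 bases before the RefSeq start, 71 in Cd209f and 84 in Cd209g reach into an untranslated region that M21 gives the gene, and these were removed. What is left is chr8:4105836-4106014 on the minus strand for Cd209f, before the M21 gene, and chr8:4134486-4134651 on the plus strand for Cd209g. The Cd209g stretch lies wholly inside the M21 gene, in the exon of a retained-intron transcript that runs from 4134098 to 4137516, and precedes the coding transcript. Both are written 5′ to 3′, with the longest run of identical bases in capitals.
Cd209f: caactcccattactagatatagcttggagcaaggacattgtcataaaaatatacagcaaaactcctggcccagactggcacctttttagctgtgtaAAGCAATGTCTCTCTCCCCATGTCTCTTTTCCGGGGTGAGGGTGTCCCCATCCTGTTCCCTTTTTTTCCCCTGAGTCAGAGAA
Cd209g: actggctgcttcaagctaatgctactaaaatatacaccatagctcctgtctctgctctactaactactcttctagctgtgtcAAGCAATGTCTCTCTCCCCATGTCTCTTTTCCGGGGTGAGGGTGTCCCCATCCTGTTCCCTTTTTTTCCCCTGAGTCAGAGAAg
The identical run was 83 bases long. Aligned end to end, these stretches of 179 and 166 bases were identical at 75.3% of aligned positions, gaps included, against 44.2% to 56.9% for the other 9 pairs among the 5 Cd209 genes, treated the same way. Of the 100-base windows in M21 transcripts, 19.9% of those in Cd209f and 11.3% of those in Cd209g also occurred in the other gene, and the estimated counts of both had fractional parts in 6 of 6 libraries. The split of reads between Cd209f and Cd209g is therefore uncertain. Cd209a, Cd209b and Cd209d had 0.0% of such windows in common with any other gene and whole-number counts in every library.

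Cd209d and Cd209b are shown for comparison because they were the members whose aged values all exceeded the young ones, lie next to each other on the minus strand and were the pair with the next highest identity (56.9%). The stretches before their M21 genes are chr8:3878556-3878749 (194 bases) and chr8:3926845-3927091 (247 bases), again with the longest run of identical bases in capitals.
Cd209d: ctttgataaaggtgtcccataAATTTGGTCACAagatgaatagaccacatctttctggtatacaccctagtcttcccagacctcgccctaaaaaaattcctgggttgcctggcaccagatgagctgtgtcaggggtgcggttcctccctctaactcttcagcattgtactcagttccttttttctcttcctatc
Cd209b: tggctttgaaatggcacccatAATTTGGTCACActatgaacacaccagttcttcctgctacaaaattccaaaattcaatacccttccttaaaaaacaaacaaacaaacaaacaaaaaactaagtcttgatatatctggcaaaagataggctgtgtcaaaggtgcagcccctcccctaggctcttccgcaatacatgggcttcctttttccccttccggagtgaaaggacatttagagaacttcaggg
Here the identical run was 12 bases long.

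Among the lectins from other loci, Clec10a (ENSMUSG00000000318, chromosome 11, 70156197 to 70170834, plus strand) had the lower values in aged cells. It encodes MGL1, which binds galactose and N-acetylgalactosamine and is used as a marker of alternatively activated macrophages. It was at 32.1, 96.9 and 31.0 CPM in aged libraries, against 160, 127 and 131 CPM in young libraries. Aged replicates 1 and 3 lay far below the young libraries and aged replicate 2 closer to them. The means were 53.4 ± 37.8 CPM in aged and 139 ± 18.1 CPM in young libraries (SD, n = 3 each). The log2 fold change was -1.38 (SE 0.53, 95% interval -2.57 to -0.20, edgeR adjusted p = 0.793). On the authors' TPM scale (scaled for depth and length) the groups overlapped, at 18.0, 105 and 18.3 TPM in aged libraries and 92.4, 75.9 and 93.7 TPM in young libraries, because aged replicate 2 was the highest library there.

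Mgl2, a close relative of Clec10a that lies nearby on chromosome 11, had some sequence in common with it (2.64% of the 100-base windows of Clec10a). Mgl2 was at 27.7, 155 and 158 CPM in aged libraries, against 133, 107 and 133 CPM in young libraries (log2 fold change -0.13, SE 0.59). In aged replicate 3 Clec10a was low while Mgl2 was high, and the ratio of Clec10a to Mgl2 in TPM was 1.85, 1.303 and 0.336 in aged libraries, against 2.41, 2.32 and 2.19 in young libraries. In TPM the 3 young ratios lay close together and above all aged ratios. In CPM the ratios overlapped between the groups. Clec10a was above Mgl2 in aged replicate 1 (32.1 against 27.7 CPM) but below it in young replicate 3 (130.7 against 133.2 CPM).

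The remaining members lie on chromosome 6 and overlapped between the groups. They are Clec4a1 (ENSMUSG00000049037, 122921848 to 122934619, plus strand), Clec4a3 (ENSMUSG00000043832, 122952515 to 122969875, plus strand), Clec4n (ENSMUSG00000023349, 123229843 to 123247021, plus strand) and Clec7a (ENSMUSG00000079293, 129461591 to 129472779, minus strand). Clec4n encodes dectin-2, a receptor for fungal mannans that signals through the Fc receptor gamma chain. It was at 294, 348 and 419 CPM in aged libraries, against 445, 176 and 430 CPM in young libraries (log2 fold change 0.011, SE 0.39, 95% interval -0.87 to 0.89). Clec7a, which encodes the beta-glucan receptor dectin-1 and is raised in microglia of neurodegeneration models, was at 81.3, 96.3 and 114 CPM in aged libraries, against 82.5, 91.0 and 57.9 CPM in young libraries (log2 fold change 0.33, SE 0.41, 95% interval -0.59 to 1.26). GENCODE M21 lists Clec7a as a polymorphic pseudogene, a class for genes that are coding in some strains. Clec4a1 and Clec4a3 are neighbouring genes of the dendritic cell immunoreceptor (DCIR) family. Clec4a1 was at 196, 143 and 214 CPM in aged libraries, against 258, 174 and 206 CPM in young libraries (log2 fold change -0.20, SE 0.34, 95% interval -0.96 to 0.55). Clec4a3 was at 787, 474 and 580 CPM in aged libraries, against 788, 528 and 1057 CPM in young libraries (log2 fold change -0.37, SE 0.35, 95% interval -1.15 to 0.41). The groups overlapped for all 4 genes. The intervals for Clec4n and Clec4a1 stayed within 1 log2 unit in both directions, while that for Clec4a3 reached down to -1.15 and that for Clec7a up to 1.26.

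**Figure D2:**
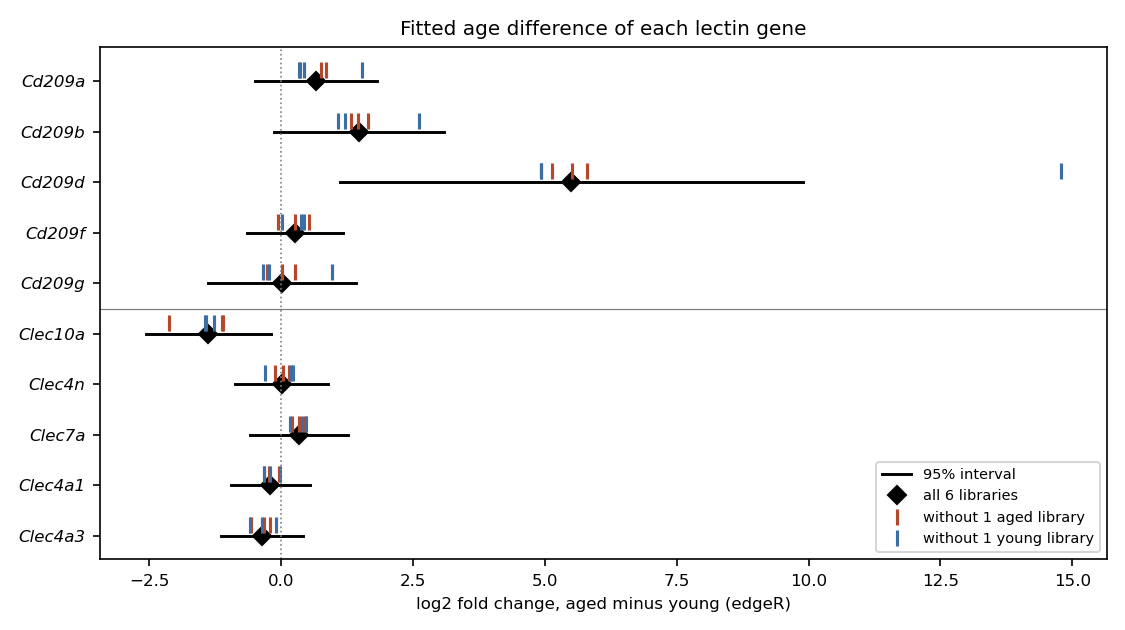
Fitted log2 fold change (aged minus young, edgeR) of each lectin gene with all 6 libraries (diamond), its 95% interval (line), and the values when 1 aged (red tick) or 1 young library (blue tick) was left out; the 5 Cd209 genes stand above the grey line. Cd209d is at 5.50 and moves to 14.79 without young replicate 3, a fitted value against young libraries all at 0, while Clec10a stays between -2.14 and -1.11 in these fits.

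As groups, the 5 Cd209 genes had a median log2 fold change of 0.66, with 5 of 5 fitted values above 0, and the 5 other lectins a median of -0.20, with 2 of 5 above 0. These counts were not stable: over the alternatives 3 to 5 of the Cd209 genes and 1 to 3 of the other lectins were above 0, and Cd209g, at 0.016, turned its sign in 5 of 14 alternatives, DESeq2 size factors among them. The median over all genes tested was -0.023. Summed over length-scaled levels, the Cd209 genes were at 457, 929 and 651 TPM in aged libraries, against 307, 258 and 447 TPM in young libraries. The other lectins were at 634, 951 and 690 TPM in aged libraries, against 775, 474 and 924 TPM in young libraries. The sums of the Cd209 genes lay apart by age in TPM by a narrow step (457 in aged replicate 1 and 447 in young replicate 3), and overlapped in CPM (1106 to 1666 in aged and 640 to 1242 in young libraries). The ratio of the 2 sums does not depend on how a library was scaled to depth. It was 0.721, 0.977 and 0.944 in aged libraries, against 0.396, 0.543 and 0.483 in young libraries, in TPM, and 0.796, 1.28 and 1.23 against 0.478, 0.584 and 0.660 in CPM. In both units each aged library had the higher ratio of Cd209 genes to these 5 other lectins. Cd209d, which separated by age, made up 23.8% of the summed Cd209 TPM in aged replicate 1, the lowest aged ratio. Clec10a, lower in each aged library in CPM, is part of the other sum. With these 2 genes left out of the sums, the ratios overlapped between the groups. Aged replicate 1 then lay below young replicate 2 in TPM and below young replicate 3 in CPM. A shift of the whole family is therefore not shown. Since the grouping was made with earlier results known, no test is given.

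**Figure D3:**
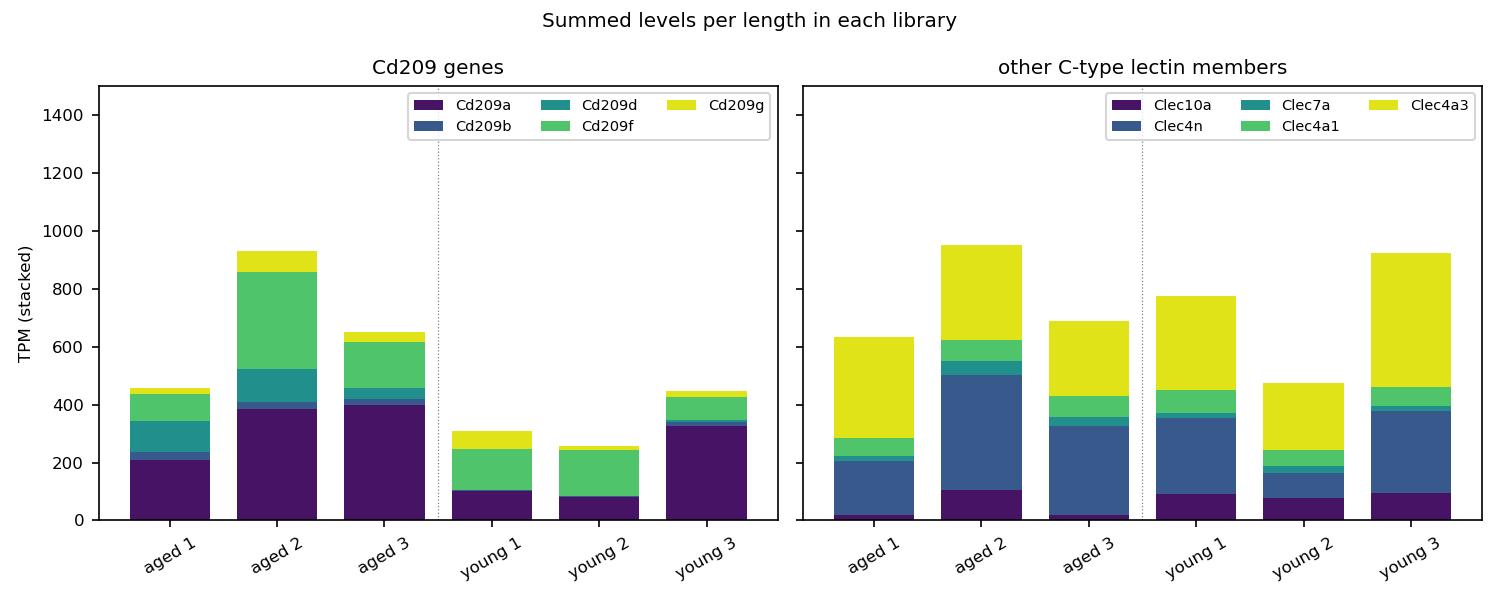
TPM of the Cd209 genes (left) and of the other 5 lectin genes (right) stacked for each library, aged before young. Cd209d adds 108.6, 111.6 and 38.6 TPM to the aged bars and at most 4.63 TPM to the young ones, and Cd209a makes up most of the bar in young replicate 3.

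The make-up of the Cd209 transcripts varied widely within each age. Cd209a took 45.6%, 41.2% and 61.3% of the summed Cd209 TPM in aged libraries, against 33.1%, 31.2% and 73.2% in young libraries. Cd209f took 19.9%, 36.0% and 24.3% in aged libraries, against 45.5%, 61.6% and 17.7% in young libraries. Cd209d took 23.8%, 12.01% and 5.92% in aged libraries, against 0.0%, 0.0% and 1.04% in young libraries. In young replicates 1 and 2 Cd209f was thus the leading transcript of the family, and in the other 4 libraries Cd209a.

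By mean TPM, the order in aged libraries was Cd209a (330 ± 106), Clec4a3 (312 ± 45.5), Clec4n (298 ± 105), Cd209f (195 ± 126), Cd209d (86.3 ± 41.3), Clec4a1 (68.8 ± 4.63), Clec10a (47.0 ± 49.96), Cd209g (43.1 ± 26.5), Clec7a (33.2 ± 16.6) and Cd209b (24.9 ± 3.81; SD, n = 3). Every neighbouring pair in this order overlapped in range. In young libraries the order was Clec4a3 (339 ± 117), Clec4n (211 ± 109), Cd209a (170 ± 137), Cd209f (126 ± 41.5), Clec10a (87.4 ± 9.93), Clec4a1 (67.6 ± 11.02), Cd209g (32.6 ± 25.6), Clec7a (19.4 ± 5.38), Cd209b (7.39 ± 6.18) and Cd209d (1.54 ± 2.67; SD, n = 3). Clec7a and Cd209b were the one neighbouring pair whose ranges were apart there. Cd209d was 5th in aged and 10th in young libraries.

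Across the 6 libraries Cd209b and Cd209d varied most alike among the 10 genes (Pearson r = 0.956 in log2 CPM), followed by Cd209a and Cd209b (r = 0.892), while Cd209f and Clec4a3 ran most oppositely (r = -0.893). These values describe 6 libraries of 2 ages and share their depth scaling. Cd209d had 0 counts in young replicates 1 and 2, where its log2 CPM is set by the added prior count of 2. Cd209b and Cd209d are also the 2 members higher in each aged library, so their r partly restates that split. Among 2184 genes averaging 50 CPM or more, those whose log2 CPM followed the summed CPM of the Cd209 genes most closely were Capzb (r = 0.995), Slamf9 (r = 0.981), Syngr1 (r = 0.978), Tmem100 (r = 0.977) and Gstp1 (r = 0.972). Clec4a3, the member with the highest mean CPM, was followed most closely by Zcrb1 (r = 0.985), S100a1 (r = 0.972), Tmem128 (r = 0.970), Rtraf (r = 0.969) and Snrpd3 (r = 0.962). Each list holds the highest r among all genes ranked, 2184 for the Cd209 sum and 2188 for Clec4a3, over only 6 libraries. Selection of the highest from so many genes raises r by itself, by an amount that was not computed. Shared variation of the named genes with the lectins was not tested.

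The other genes with a C-type lectin domain varied in both directions. Of 35 such genes, 19 passed the filter on low counts and 16 did not, among them Clec9a, Cd207 and Ly75, which mark dendritic cells. By edgeR 0 were called in either direction, 9 of the 19 fitted values were above 0, and the median log2 fold change was -0.06. Cd72, which carries an inhibitory motif and is known from B cells, was higher in each aged library, at 49.4, 43.1 and 34.3 CPM in aged libraries, against 4.51, 0.223 and 4.22 CPM in young libraries (log2 fold change 3.82, SE 1.20, edgeR adjusted p = 0.651). Cd93 (log2 fold change 0.77, SE 0.46) and Clec2i (2.39, SE 1.79) overlapped between groups.

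Lower values in each aged library were found for 4 of the 19, against 7.19% of all genes tested, and 3 of them are described. Clec4a2, the DCIR gene between Clec4a3 and Clec4n, was at 949, 369 and 617 CPM in aged libraries, against 1091, 1150 and 1423 CPM in young libraries (log2 fold change -0.92, SE 0.37, edgeR adjusted p = 0.808). Colec12, a scavenger receptor with a lectin domain, was at 60.7, 31.6 and 51.8 CPM in aged libraries, against 147, 125 and 68.5 CPM in young libraries (log2 fold change -1.24, SE 0.49, edgeR adjusted p = 0.797). Mrc1, the mannose receptor used for sorting, had a log2 fold change of -0.79 (SE 0.32, edgeR adjusted p = 0.817).

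Genes that carry lectin signals onward were measured at widely different levels, and edgeR called 0 of them. Of the activating list, 20 of 21 passed the filter (Card9, the adaptor downstream of Syk, did not), 7 had fitted values above 0 and the median was -0.23. Fcer1g encodes the Fc receptor gamma chain, through which dectin-2 signals, and Tyrobp encodes another signalling chain. Fcer1g and Tyrobp were at 7963 ± 2409 and 5902 ± 1999 CPM in aged libraries, against 9983 ± 1020 and 6998 ± 604 CPM in young libraries (SD, n = 3). Lyn, a Src family kinase, was at 317, 395 and 205 CPM in aged libraries, against 215, 157 and 96.4 CPM in young libraries (log2 fold change 0.97, SE 0.40, edgeR adjusted p = 0.840). The log2 fold changes were 1.28 (SE 0.68) for Prkcd, the kinase that acts on Card9, and 1.32 (SE 0.93) for Syk, against -0.66 (SE 0.60) for Nfkb1 and -0.81 (SE 0.82) for Nfatc1, transcription factors at the end of the pathway.

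Of the inhibitory list, 4 of 4 passed the filter and the median was 1.27. Ptpn6, which encodes the phosphatase SHP-1, was at 79.4, 200 and 86.8 CPM in aged libraries, against 48.0, 47.2 and 65.4 CPM in young libraries (log2 fold change 1.19, SE 0.49, edgeR adjusted p = 0.839). Each aged library was above every young one for Ptpn6, while Inpp5d, which encodes the lipid phosphatase SHIP-1, overlapped (log2 fold change -0.54, SE 0.46), as did Ptpn11 (1.35, SE 1.27).

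Interleukin-4 and interleukin-13 raise Clec10a and several other lectins in mouse macrophages, so their receptors were listed too. Of 13 genes, 12 passed the filter, and the median log2 fold change was 0.43. In each aged library 3 were higher and 2 lower, against 7.54% and 7.19% of all genes tested. Il13ra1, a chain of the receptor for both cytokines, was at 104, 148 and 223 CPM in aged libraries, against 76.4, 62.7 and 61.3 CPM in young libraries (log2 fold change 1.24, SE 0.41, edgeR adjusted p = 0.704). Il4ra was at 60.2, 74.7 and 57.9 CPM in aged libraries, against 41.4, 29.0 and 21.9 CPM in young libraries (log2 fold change 1.06, SE 0.55, edgeR adjusted p = 0.917). Il2rg, the common gamma chain, was at 123, 61.3 and 118 CPM in aged libraries, against 0, 18.7 and 20.9 CPM in young libraries (log2 fold change 2.93, SE 1.46, edgeR adjusted p = 0.913). The genes lower in each aged library were Csf2rb, a receptor chain for GM-CSF (log2 fold change -1.12, SE 0.64), and Irf4, at no more than 4.09 CPM in any library. By edgeR 0 of the 12 were called.

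**Figure D4:**
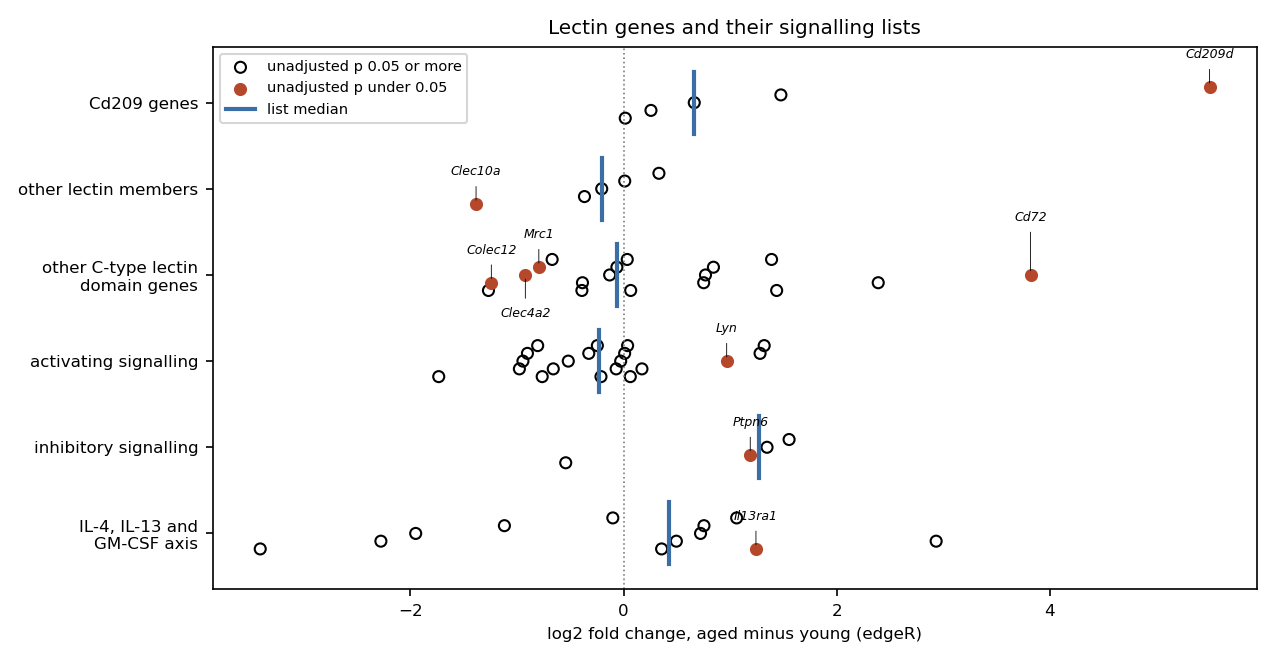
Fitted log2 fold change (aged minus young, edgeR) of the tested genes in the 6 lists, 1 of them left out, with genes at an unadjusted p under 0.05 filled and named and the list medians as blue lines; vertical scatter within a list only separates points. The Cd209 genes (median 0.66) all lie above 0 in this fit, Cd209g at 0.016 with a sign that turned with DESeq2 size factors, and the other lists spread to both sides of 0; 0 of these genes were called after adjustment over all genes tested.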

How the data were processed

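Per the labels' protocols, RNA of the sorted cells was reverse transcribed with a SMARTer low-input kit, and the cDNA was amplified by PCR, tagmented and sequenced as single reads; the kit does not mark strand, and no listed gene overlapped a member. Per the submitters' processing notes, the tools were bcl2fastq 2.20, fastp, FastQC, Picard and DRAGEN, and the build was mm10; for the annotation, none is given in those sources. Per the file headers, the deposited tables hold estimated counts per gene, not scaled to depth, and TPM, which the authors scaled by effective length and depth. Estimated counts were rounded here. The labels give no batch. Of 35598 identifiers, 35513 matched GENCODE M21, ignoring versions.

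Counts were fitted with edgeR 4.0.16 (R 4.3.3; filterByExpr, TMM, robust quasi-likelihood F test, two-sided, no covariate), comparing aged with young libraries, and called at an adjusted p under 0.05. SE was taken as |log2 fold change| divided by root F. CPM is TMM-normalised; its precision is limited by 3 libraries a group, and floors of 3 counts cover counting error only, since PCR reads without molecular identifiers are not independent. The fit was tested on simulated negative binomial counts with 200 changed genes. Dispersions came from edgeR, and changed genes were drawn from those averaging 50 CPM or more. In these data edgeR called 35 of 66 at 2 log2 units, 57 of 67 at 3 and 64 of 67 at 4. It made 13 false calls among 10461 genes.

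The members, the lists, the rule for naming list genes (the 3 smallest p-values in each direction at a mean of at least 10 CPM) and the alternatives were chosen with earlier results of these data known; Mgl2, Mrc1, Batf3, Zbtb46, Tyrobp, Irf4, Card9, Cd209c, Cd209e and untested genes were named after their values were seen. Alternatives were DESeq2 1.42.0 size factors and Wald test, limma 3.58.1 voom and trend on log2(TPM + 1), 3 other filters, a block on the replicate number and leaving out each library. Upstream windows come from RefSeq (8 of 10 members matched), were cut where M21 gives a UTR and were aligned with Biopython 1.88. Some list genes are not reported here.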

Additional observations from a re-analysis of the deposited data

How the results depend on the processing

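Of 140 refits of single members, 130 kept the direction and stayed uncalled, 1 became called and 9 turned the sign. The call was Cd209d without young replicate 3; leaving out 1 library gave 0 to 1 members called higher and 0 called lower. Signs turned for Cd209g with DESeq2 size factors in edgeR (-0.0066) and in DESeq2's Wald test (-0.0066), and for Clec4a1 in limma-trend on log2(TPM + 1) (0.036). With 1 library left out, the log2 fold change ranged from -0.066 to 0.53 for Cd209f (below 0 without aged replicate 2), from -0.36 to 0.96 for Cd209g (below 0 without aged replicate 2, young replicate 2 or young replicate 3) and from -0.31 to 0.23 for Clec4n (below 0 without aged replicate 3 or young replicate 2). Over all 14 alternatives the adjusted p lay between 0.0303 and 0.914 for Cd209d, 0.308 and 0.947 for Cd209b, and 0.253 and 0.914 for Clec10a, and these 3 genes kept their direction in each.

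Of all genes tested, 1 was called higher and 0 lower. These counts were 117 and 41 with DESeq2's Wald test, 51 and 11 without a filter, and 19 and 6 among genes averaging 50 CPM or more; limma-voom called 0 higher. Leaving out 1 library gave 0 to 2 higher (0 without aged replicate 2 or aged replicate 3, 2 without young replicate 3) and 0 to 1 lower (1 without aged replicate 1). The cause of these shifts was not tested. In simulated data DESeq2 made 140 false calls among 10461 genes. Those counts were negative binomial with dispersions fitted by edgeR, so they cannot show how many of the DESeq2 calls here were false. Both ages share replicate numbers. Across genes averaging 50 CPM or more, same-numbered libraries did not deviate together (r from -0.013 to 0.079), though choroid plexus transcripts were highest in replicate 3 of both ages. Whether same-numbered libraries were prepared together is not known. With a replicate block edgeR called 1 gene higher, 0 lower and 0 members, with Cd209d at a log2 fold change of 10.19 (edgeR adjusted p = 0.914).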
